A study of Homo sapiens with 6 samples.

Results

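PINK1, 6 receptors of mitophagy (BNIP3, BNIP3L, FUNDC1, PHB2, FKBP8 and BCL2L13), the adaptors OPTN and CALCOCO2 and the deubiquitinase USP30 were followed as a set of 10 genes, chosen by gene name, in a table of 35035 genes. All 10 were in the table and all 10 passed the filter on low reads. RNA came from HK-2, a permanently growing human line derived from proximal tubular epithelium of the kidney. Cells of 3 libraries carried the circAASS-overexpression plasmid (genotype label circAASS-overexpressed), and cells of the other 3 carried the empty vector (genotype label WT). The name circAASS marks a closed-loop RNA from the gene AASS. All 6 libraries came from cells held at 1% oxygen for 24 h and reoxygenated for 12 h, as an imitation in culture of ischaemic kidney injury, so hypoxia is shared by both groups. Only 1 cell line was used, no library from normal oxygen was analysed here, and the labels do not say whether the 3 repeats were separate cultures, so that p-values cover only how far these libraries lie apart, which may be technical.

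Mitophagy is the delivery of whole mitochondria to the lysosome. In the ubiquitin-dependent route the kinase PINK1 is destroyed in healthy mitochondria, builds up on the surface of depolarised mitochondria, and phosphorylates ubiquitin and the ubiquitin ligase parkin; OPTN and CALCOCO2 (NDP52) then tie the ubiquitin chains to ATG8 proteins of the forming autophagosome, and USP30 on the outer membrane takes ubiquitin off again. In the receptor route, mitochondrial membrane proteins such as BNIP3, BNIP3L (NIX), FUNDC1, FKBP8, BCL2L13 and the inner-membrane prohibitin PHB2 bind ATG8 proteins themselves; BNIP3 and BNIP3L are known as genes induced in hypoxia by the factor HIF. Proximal tubule cells are rich in mitochondria, and both routes are studied in ischaemic kidney injury. Transcript levels do not measure the flux of mitochondria to lysosomes, and PINK1 in particular is known to be controlled as a protein.

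Promoter sequence is shown for 4 of the genes: both adaptors, which rose with the circAASS plasmid, USP30, which fell, and BNIP3, the hypoxia-induced receptor. The 250 bases before a RefSeq start (GRCh38.p14) are printed 5′ to 3′ on the strand of the gene, with letters that match a searched motif in capitals.
OPTN, chr10:13099832-13100081, plus strand: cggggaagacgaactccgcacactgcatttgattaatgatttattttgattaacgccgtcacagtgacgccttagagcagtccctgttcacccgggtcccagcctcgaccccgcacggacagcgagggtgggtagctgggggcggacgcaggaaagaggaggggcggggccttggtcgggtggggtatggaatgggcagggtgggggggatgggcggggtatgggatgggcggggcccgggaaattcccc
CALCOCO2, chr17:48830785-48831034, plus strand: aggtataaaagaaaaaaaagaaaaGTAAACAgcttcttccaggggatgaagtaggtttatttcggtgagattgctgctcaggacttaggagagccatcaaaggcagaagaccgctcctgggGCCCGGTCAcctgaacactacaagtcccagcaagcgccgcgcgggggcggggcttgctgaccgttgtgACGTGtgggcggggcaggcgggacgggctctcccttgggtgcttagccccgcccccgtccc
USP30, the second of 2 listed starts, chr12:109052326-109052575, plus strand: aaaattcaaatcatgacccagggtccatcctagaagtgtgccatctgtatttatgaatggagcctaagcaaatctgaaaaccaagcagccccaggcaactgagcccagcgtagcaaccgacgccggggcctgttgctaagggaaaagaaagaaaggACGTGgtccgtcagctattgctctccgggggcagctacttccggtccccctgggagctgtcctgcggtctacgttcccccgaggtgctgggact
BNIP3, chr10:131981924-131982173, minus strand: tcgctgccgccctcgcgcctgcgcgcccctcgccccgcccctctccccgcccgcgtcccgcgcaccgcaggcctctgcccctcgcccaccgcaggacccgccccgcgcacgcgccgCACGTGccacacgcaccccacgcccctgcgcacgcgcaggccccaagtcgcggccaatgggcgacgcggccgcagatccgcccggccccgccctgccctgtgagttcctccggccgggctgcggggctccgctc

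Both strands were searched for the HIF response core ACGTG, the E-box CACGTG that factors such as TFE3 can bind, the FOXO site GTAAACA and the antioxidant response core TGACNNNGC. The BNIP3 window holds CACGTG from 134 to 129 bases before the start, which contains ACGTG on both strands. CALCOCO2 holds ACGTG 61 bases before the start, GTAAACA at 226 and TGACNNNGC on the other strand at 129. USP30 holds ACGTG at 94 in the printed window, while the window of its first listed start holds none of the motifs. The printed OPTN window belongs to the first of its listed starts, and it holds none of the motifs. Of 35116 windows of this length in the RefSeq table, 18.5% hold ACGTG, 6.34% CACGTG, 2.98% GTAAACA and 10.9% TGACNNNGC. Of the 10 genes 7 were listed in the table, while PINK1, BNIP3L and FKBP8 were not. Of these 7, BNIP3, CALCOCO2 and USP30 hold ACGTG in a listed window. FUNDC1, PHB2 and BCL2L13, like OPTN, hold none of the motifs in any listed window. Some genes have several windows, so a count of genes is not comparable with the shares of windows. A match describes letters and was not tested as a binding site.

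PINK1 was the gene of the set with the largest change: it rose 2.37-fold with the circAASS plasmid by the ratio of means. The adaptors OPTN and CALCOCO2 rose by 13.9% and 16.7%, USP30 was 30.4% lower, and the 6 receptors did not pass the test. Thus 3 of 10 genes rose, 1 fell and 6 did not pass (limma on log2(RPKM + 0.1), Benjamini-Hochberg adjusted p under 0.05 over 19321 tested genes). Of all tested genes 32.4% passed, 16.4% higher and 16.0% lower, so 4 of 10 is close to the share of all genes. The median log2 fold change was -0.05 in the set and -0.01 over all tested genes. RPKM are reads per kilobase of exon, scaled by the total reads of the library, and fold changes on the log2(RPKM + 0.1) scale understate the change of low genes. The 2.37-fold and the percentages are ratios of deposited RPKM means. The tests used RPKM divided by trimmed-mean factors, with log2 fold changes of 0.27 for OPTN, 0.30 for CALCOCO2 and -0.40 for USP30. In RNA from whole cultures, a change in the cells present and a change in RNA per cell cannot be told apart.

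**Figure D1:**
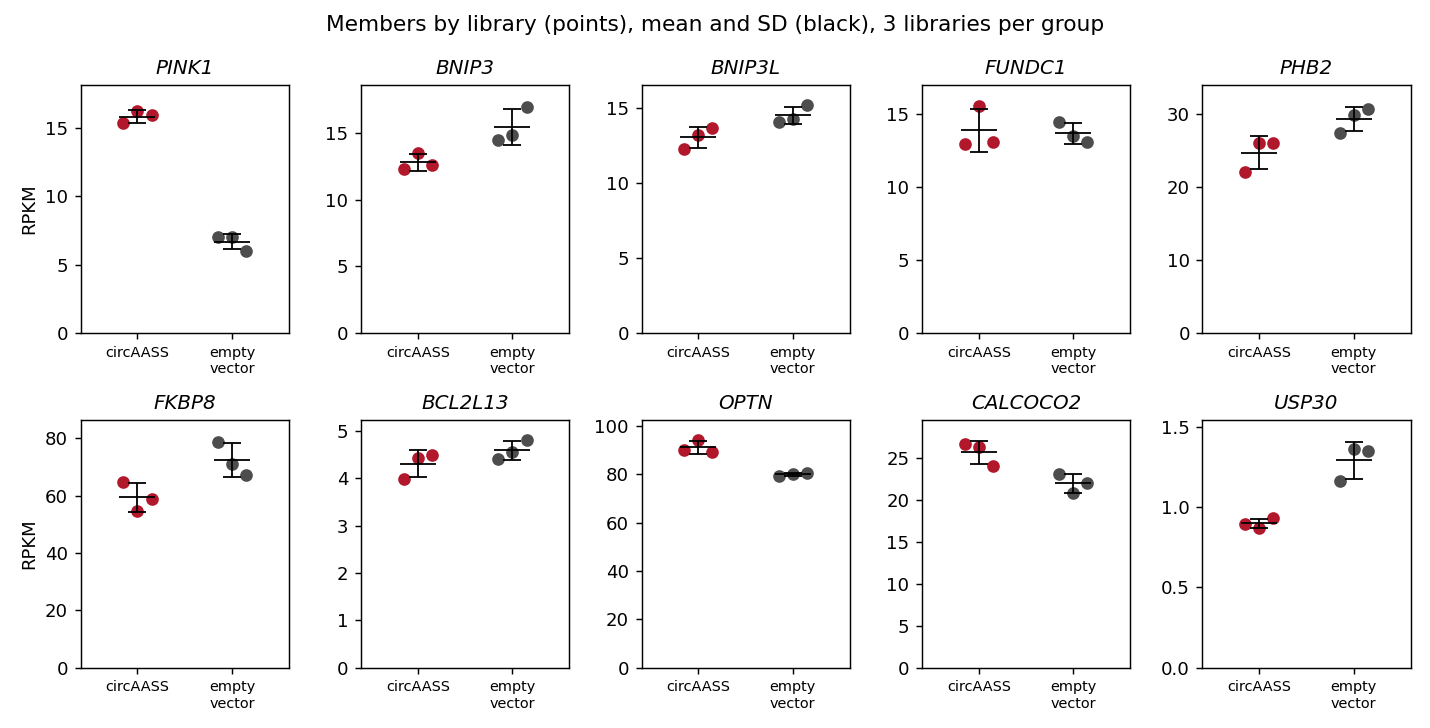
RPKM of the 10 genes in each library (points), with the mean and SD of 3 libraries per group in black; circAASS on the left, empty vector on the right, each axis starting at 0. The 3 PINK1 values with circAASS lie between 15.3 and 16.2 RPKM and those with empty vector between 6.02 and 6.98 RPKM, while the 2 groups of FUNDC1 overlap.

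PINK1 (chromosome 1, 20633455 to 20651511, plus strand, GENCODE 29 on GRCh38) stood at 15.3, 16.2 and 15.9 RPKM with circAASS (3543, 4556 and 3635 reads), against 6.98, 6.98 and 6.02 RPKM with empty vector (1524, 1723 and 1527 reads). The groups were far apart beside the spread within each. The means were 15.8 ± 0.466 with circAASS and 6.66 ± 0.557 with empty vector (SD, n = 3 each), a log2 fold change of 1.31 (SE 0.08, limma adjusted p = 0.00013). PINK1 had the 39th smallest p and the 121st largest rise of 19321 genes. It passed whichever of the 6 libraries was left out, with log2 fold changes from 1.23 to 1.35 and an adjusted p of at most 0.0015.

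Reads of PINK1 are uncertain, because the antisense gene PINK1-AS shares 39.4% of its exon bases and whether the counting used strand is not given in the sources used here. PINK1-AS stood at 16.2, 17.6 and 17.5 RPKM with circAASS, against 10.1, 10.3 and 9.77 RPKM with empty vector. It rose as well, by a log2 fold change of 0.84 (SE 0.05, limma adjusted p = 0.000152), less than PINK1. The log2 ratio of PINK1 to PINK1-AS was -0.11 ± 0.03 with circAASS and -0.59 ± 0.09 with empty vector (SD, n = 3 each), a difference of 0.48 without overlap between the groups (two-sided exact permutation p = 0.1, the smallest that 3 against 3 allows). The share of the PINK1 rise that comes from antisense reads, or the reverse, was not tested.

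USP30 (chromosome 12, 109023089 to 109088026, plus strand), whose product counters PINK1 by removing ubiquitin, had the lowest level of the set. It stood at 0.897, 0.870 and 0.929 RPKM with circAASS, from 221, 260 and 226 reads, against 1.16, 1.36 and 1.35 RPKM with empty vector, from 269, 356 and 365 reads. The groups did not overlap. The log2 fold change was -0.40 (SE 0.11, limma adjusted p = 0.0264). The call was lost without any of circAASS libraries 1, 2 and 3 or empty-vector libraries 2 and 3, with adjusted p of 0.0518, 0.0652, 0.061, 0.093 and 0.0857, and without the filter on low reads (adjusted p = 0.0548).

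USP30 has an antisense neighbour too, USP30-AS1, which covers 4.54% of its exon bases. USP30-AS1 stood at 3.18, 2.17 and 1.90 RPKM with circAASS, against 4.79, 4.72 and 4.42 RPKM with empty vector, and fell by 0.87 on the log2 scale (SE 0.18, limma adjusted p = 0.011). PINK1 with PINK1-AS, and USP30 with USP30-AS1, thus moved the same way. The ratio of PINK1 to USP30 RPKM was 17.0, 18.6 and 17.1 in the circAASS libraries and 6.02, 5.14 and 4.44 in the empty-vector libraries, a description of 2 genes that each passed on their own.

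**Figure D2:**
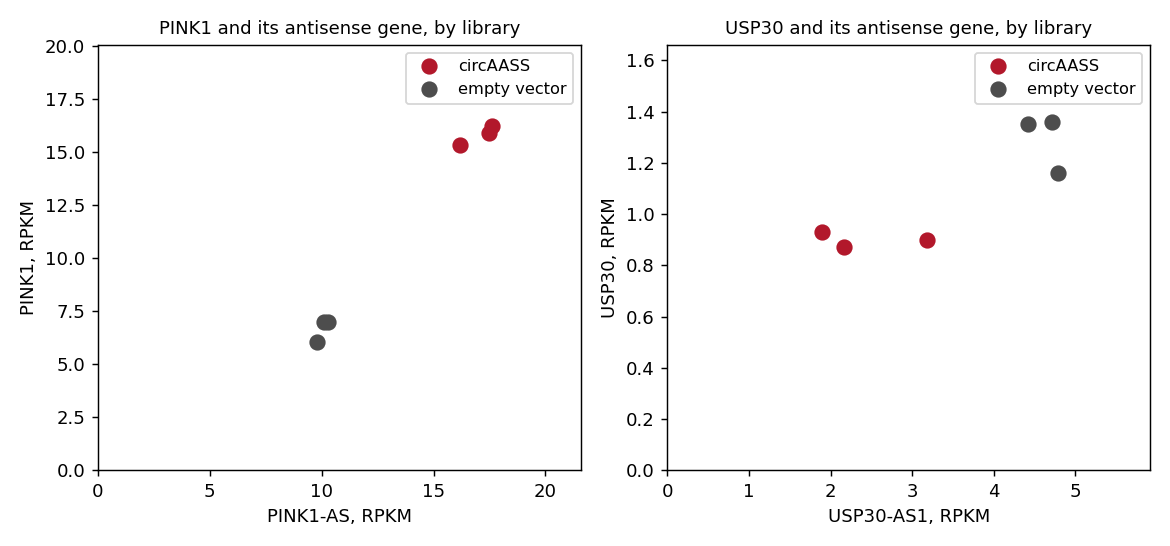
RPKM of PINK1 against PINK1-AS (left) and of USP30 against USP30-AS1 (right), 1 point per library, circAASS in red and empty vector in grey. The circAASS points lie higher on both axes for PINK1 and lower on both axes for USP30, and the groups are separate on each axis.

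OPTN (optineurin; chromosome 10, 13099449 to 13138308, plus strand) was the most abundant gene of the set. It stood at 90.2, 94.2 and 89.0 RPKM with circAASS, from 22224, 28144 and 21678 reads, against 79.2, 80.1 and 80.6 RPKM with empty vector, from 18383, 20994 and 21726 reads. The groups did not overlap, and with empty vector the 3 libraries differed by a coefficient of variation of only 0.849%. The log2 fold change was 0.27 (SE 0.05, limma adjusted p = 0.00567), and it passed whichever of the 6 libraries was left out (highest adjusted p = 0.0269).

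CALCOCO2 (chromosome 17, 48830988 to 48866522, plus strand) stood at 26.7, 26.3 and 24.1 RPKM with circAASS, from 10672, 12741 and 9500 reads, against 23.1, 20.9 and 22.0 RPKM with empty vector, from 8682, 8892 and 9617 reads. The lowest circAASS library was just above the highest empty-vector library. The log2 fold change was 0.30 (SE 0.07, limma adjusted p = 0.0158), and the call was lost without empty-vector library 2 (adjusted p = 0.0606) or 3 (adjusted p = 0.0525). No other annotated gene overlaps the exons of CALCOCO2, and 2.86% of those of OPTN are covered. The ratio of OPTN to CALCOCO2 was 3.55 ± 0.164 with circAASS and 3.64 ± 0.198 with empty vector (SD, n = 3 each), a difference smaller than the spread between libraries.

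The 6 receptors are membrane proteins of mitochondria that bind ATG8 proteins without ubiquitin. FKBP8, an outer-membrane member of the FK506-binding family, was the most abundant (chromosome 19, 18531751 to 18544077, minus strand), at 64.9, 54.6 and 58.8 RPKM with circAASS against 78.9, 71.0 and 67.3 RPKM with empty vector. PHB2, a prohibitin of the inner membrane that is exposed when the outer membrane ruptures (chromosome 12, 6965327 to 6970825, minus strand), stood at 22.1, 26.0 and 26.0 RPKM with circAASS against 27.4, 29.8 and 30.7 RPKM with empty vector. For both genes each circAASS library was below each empty-vector library in deposited RPKM. The log2 fold change of FKBP8 was -0.21 (95% interval -0.42 to 0.01, limma adjusted p = 0.126) and that of PHB2 -0.17 (-0.33 to -0.01, adjusted p = 0.0935). Without circAASS library 1 FKBP8 passed (adjusted p = 0.0407). The small RNA gene SCARNA12 lies on the same strand over 9.56% of the PHB2 exon bases; it stood at 14.4 ± 4.22 RPKM with circAASS and 9.45 ± 2.65 RPKM with empty vector (SD, n = 3 each; adjusted p = 0.0726, and 0.0378 without circAASS library 1).

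BNIP3 (chromosome 10, 131966455 to 131982013, minus strand) stood at 12.3, 13.5 and 12.6 RPKM with circAASS, from 3129, 4167 and 3191 reads, against 14.5, 14.9 and 17.0 RPKM with empty vector, from 3498, 4050 and 4759 reads. BNIP3L, its closest relative (chromosome 8, 26382898 to 26505636, plus strand), stood at 12.3, 13.2 and 13.7 RPKM with circAASS against 14.1, 14.3 and 15.2 RPKM with empty vector. Both were lower in every circAASS library than in any empty-vector library, without passing the test. The log2 fold change of BNIP3 was -0.20 (95% interval -0.35 to -0.04, limma adjusted p = 0.0616) and that of BNIP3L -0.08 (-0.19 to 0.04, adjusted p = 0.282). The ratio of BNIP3 to BNIP3L was 0.98 ± 0.0522 with circAASS and 1.06 ± 0.0519 with empty vector (SD, n = 3 each). The table also holds 14 copies of BNIP3, named as its pseudogenes, none of which passed the filter on low reads. BNIP3L shares 7.66% of its exon bases with PNMA2 and 1.3% with SDAD1P1, both antisense. PNMA2 stood at 4.69 ± 0.200 RPKM with circAASS and 5.14 ± 0.0495 RPKM with empty vector (adjusted p = 0.492). SDAD1P1 fell, to 0.608 ± 0.0916 RPKM with circAASS against 0.954 ± 0.0805 RPKM with empty vector (limma adjusted p = 0.0346), a call that survived the loss of circAASS library 1 but of no other library (highest adjusted p = 0.103).

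FUNDC1, an outer-membrane receptor studied in hypoxia (chromosome X, 44523639 to 44543001, minus strand), stood at 13.0, 15.6 and 13.1 RPKM with circAASS against 14.5, 13.5 and 13.1 RPKM with empty vector. BCL2L13, a BCL2-family protein that can stand in for the yeast receptor Atg32 (chromosome 22, 17628855 to 17730855, plus strand), stood at 3.99, 4.44 and 4.50 RPKM with circAASS against 4.41, 4.55 and 4.81 RPKM with empty vector. The groups overlapped in both genes. Their 95% intervals, -0.11 to 0.30 for FUNDC1 and -0.17 to 0.14 for BCL2L13 on the log2 scale, allow a change within those bounds in either direction.

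The calls of BNIP3, PHB2 and FKBP8 depended on the scaling and on the test used. When values were scaled by library size alone, 7 of the 10 genes passed, 3 higher and 4 lower, because BNIP3 (log2 fold change -0.27, adjusted p = 0.0255), PHB2 (-0.25, adjusted p = 0.0431) and FKBP8 (-0.28, adjusted p = 0.0324) joined USP30; of all tested genes 32.0% passed there, 2160 higher and 4021 lower, against 3176 higher and 3092 lower with trimmed-mean factors. Limma-voom on reads worked out from the RPKM kept the trimmed-mean factors. With it the same 7 genes passed in the same directions, against 39.0% of all genes. The log2 fold changes of BNIP3 (-0.20), PHB2 (-0.17) and FKBP8 (-0.21) were as given above. BNIP3L, FUNDC1 and BCL2L13 passed under none of the 14 alternatives. Without empty-vector library 2 or 3, 2 of the 10 genes passed, PINK1 and OPTN.

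**Figure D3:**
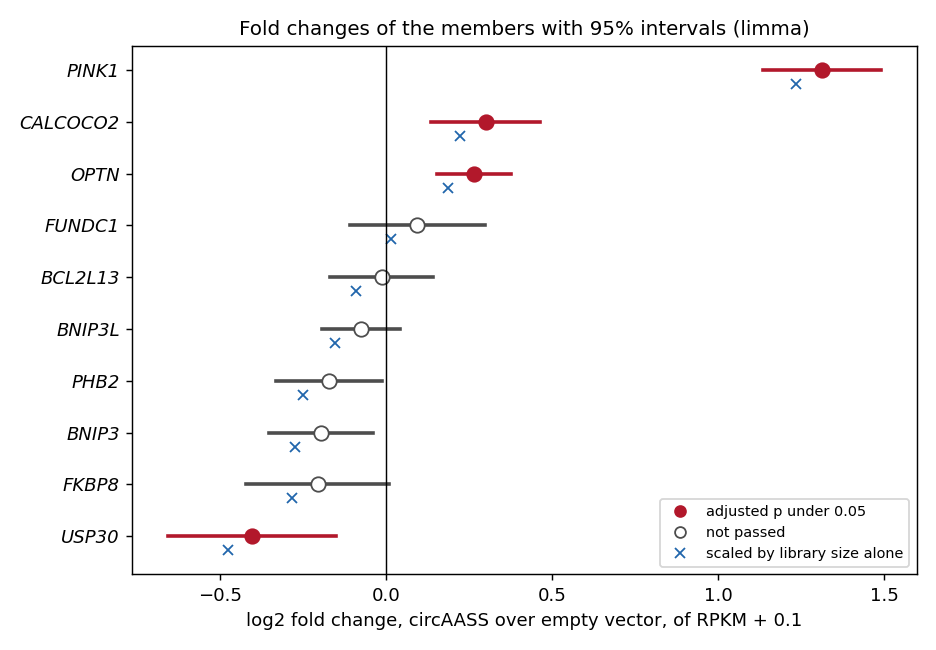
Log2 fold changes of the 10 genes, circAASS over empty vector, with 95% intervals from limma; filled red, adjusted p under 0.05; open grey, not passed; blue crosses, the estimate with library size alone. PINK1 lies at 1.31, all other genes lie between -0.40 and 0.30, and each cross lies left of its circle.

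**Figure D4:**
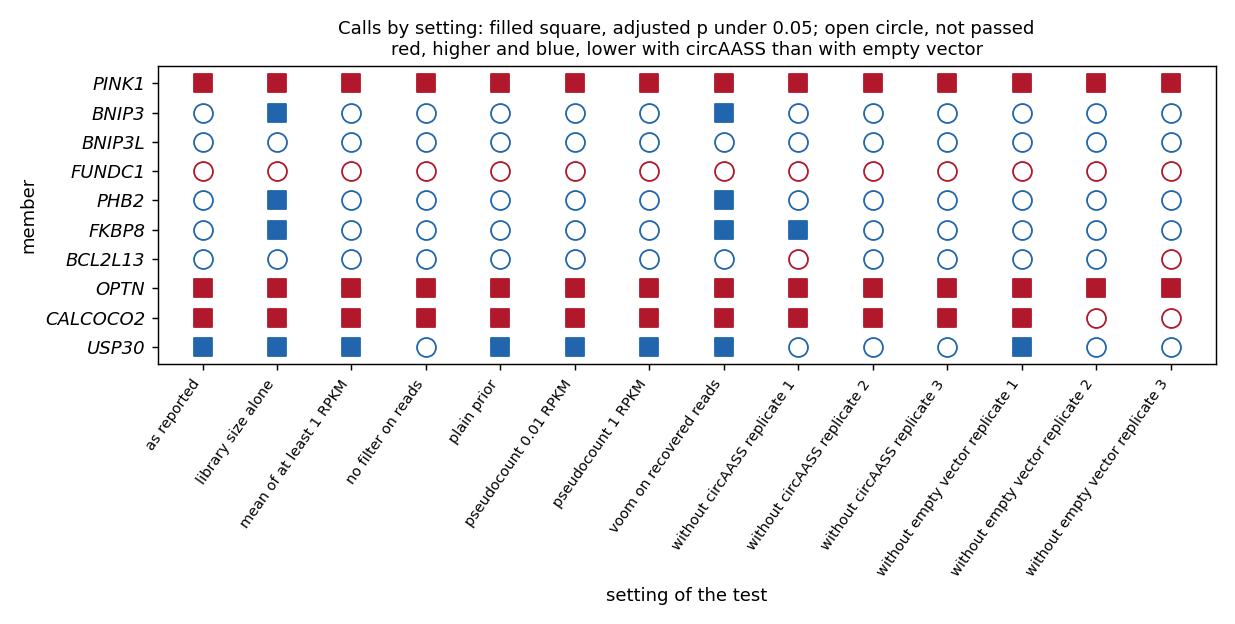
Calls of the 10 genes (rows) as reported and under 13 alternatives (columns); filled squares passed, open circles did not, red higher and blue lower with circAASS. PINK1 and OPTN are filled in every column, while USP30 is open in 5 of the 6 columns that leave out a library.

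In deposited RPKM the groups did not overlap for 8 of the 10 genes, 3 higher and 5 lower, where 47.5% of all tested genes did not overlap; after scaling it was 7, against 47.9%. Summed over the 6 receptors, RPKM were 129, 127 and 129 with circAASS and 154, 148 and 148 with empty vector. Summed over the 2 adaptors they were 117, 120 and 113 with circAASS and 102, 101 and 103 with empty vector. The sum over all 10 genes was 262 ± 3.02 with circAASS and 260 ± 3.81 with empty vector (SD, n = 3 each), level in deposited RPKM only. These sums weigh abundant genes most, and they come from deposited RPKM, in which the scaling by library size alone pulls the circAASS values down. Dividing by the trimmed-mean factors (0.954 to 0.996 with circAASS, 1.02 to 1.04 with empty vector) would raise the circAASS sums and lower the others.

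Per kilobase, levels spanned a wide range within each group. In the circAASS libraries the order was OPTN, FKBP8, CALCOCO2, PHB2, PINK1, FUNDC1, BNIP3L, BNIP3, BCL2L13 and USP30, with means of 91.1, 59.5, 25.7, 24.7, 15.8, 13.9, 13.1, 12.8, 4.31 and 0.899 RPKM. There CALCOCO2 was not separate from PHB2, nor PINK1 from FUNDC1, FUNDC1 from BNIP3L or BNIP3L from BNIP3, since their libraries overlapped. In the empty-vector libraries the order was OPTN, FKBP8, PHB2, CALCOCO2, BNIP3, BNIP3L, FUNDC1, PINK1, BCL2L13 and USP30, with means of 80.0, 72.4, 29.3, 22.0, 15.5, 14.5, 13.7, 6.66, 4.59 and 1.29 RPKM, and BNIP3, BNIP3L and FUNDC1 overlapped with their neighbours. PINK1 thus stood above BNIP3, BNIP3L and FUNDC1 in mean level with circAASS, and with empty vector it stood below them in every library. OPTN exceeded USP30 101-fold with circAASS and 61.9-fold with empty vector.

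The genes whose pattern over the 6 libraries was nearest to that of PINK1, by Euclidean distance of centred log2 values, were ETS2, TOB1, ADAMTS1, RP11-618G20.1 and SNAPC1, at distances of 0.164 to 0.228 and Pearson r of 0.991 to 0.995 over 6 libraries; since the groups separate in each, r mostly reflects the 2 groups. ETS2, a transcription factor, stood at 8.65 ± 0.756 RPKM with circAASS and 3.74 ± 0.223 RPKM with empty vector. The antiproliferative protein gene TOB1 stood at 5.78 ± 0.431 RPKM with circAASS and 2.55 ± 0.188 RPKM with empty vector (SD, n = 3 each). The metalloprotease gene ADAMTS1 stood at 37.0 ± 1.10 RPKM with circAASS and 15.1 ± 1.06 RPKM with empty vector. SNAPC1, of which other genes cover 21.3% of the exon bases, stood at 357 ± 32.6 RPKM with circAASS and 147 ± 12.8 RPKM with empty vector. RP11-618G20.1 stood at 655 ± 60.0 RPKM with circAASS and 280 ± 17.9 RPKM with empty vector. No single position was found for RP11-618G20.1 in the annotation used, and whether it shares reads with SNAPC1 was not tested.

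Genes around the set were read from lists, beginning with the PINK1-parkin branch (import and cleavage of PINK1, parkin and its substrates). Beside the counts of every list stand the shares of all tested genes, of which 32.4% passed, 16.4% higher and 16.0% lower. No list was tested as a set. Parkin itself, listed under the older name PARK2, averaged 0.0308 RPKM with circAASS and 0.0648 RPKM with empty vector. Its reads were worked out with the smallest fitting length, as 7, 1 and 3 with circAASS and 4, 12 and 8 with empty vector. These are the fewest reads that fit, and they fell under the filter, so parkin was not tested. A longer true length would give more reads, and whether parkin would then pass the filter is not known. Of 32 tested genes of the branch 9 rose, 4 fell and 19 did not pass, with a median log2 fold change of 0.13. CISD1 (mitoNEET), an outer-membrane iron-sulphur protein and parkin substrate, rose to 6.69 ± 1.02 RPKM with circAASS, against 3.66 ± 0.0561 RPKM with empty vector (log2 fold change 0.92, limma adjusted p = 0.00116). TBK1, the kinase that phosphorylates OPTN and CALCOCO2, rose to 18.0 ± 1.10 RPKM with circAASS, against 14.0 ± 0.454 RPKM with empty vector (log2 fold change 0.44, adjusted p = 0.00153), with UBE2L3 (log2 fold change 0.35), a ubiquitin-conjugating enzyme used by parkin, and ATAD3A (0.36), an inner-membrane ATPase with a near-identical copy in ATAD3B. The 4 that fell were the inner-membrane proteases OMA1 (-0.80) and AFG3L2 (-0.25) and the mitochondrial transport GTPases RHOT1 (-0.25) and RHOT2 (-0.26), which are parkin substrates. AFG3L2 passed whichever library was left out. OMA1 was lost without any 1 of the empty-vector libraries (highest adjusted p = 0.0717), RHOT2 without each library but circAASS library 1 (up to 0.107) and RHOT1 without each of the 6 libraries (up to 0.111). The count of the branch was 8, 7 and 7 without empty-vector library 1, 2 and 3.

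Of 13 other mitophagy receptors and adaptors 4 rose, 5 fell and 4 did not pass (median log2 fold change -0.10). SQSTM1 (p62), a ubiquitin-binding adaptor like OPTN, rose to 34.5 ± 2.03 RPKM with circAASS, against 26.2 ± 0.377 RPKM with empty vector (log2 fold change 0.47, limma adjusted p = 0.000742); other genes cover 22.0% of its exon bases. The adaptor TAX1BP1 (0.32), the FUNDC1 paralogue FUNDC2 (0.41) and ATAD3B (0.72) also rose; how reads that match its near-identical copies were counted is not known, so its value is uncertain. NIPSNAP1, a matrix protein that recruits autophagy adaptors from the surface of damaged mitochondria, fell to 8.14 ± 0.620 RPKM with circAASS, against 16.6 ± 0.594 RPKM with empty vector (log2 fold change -0.94, adjusted p = 0.00028). Its relative NIPSNAP2, listed as GBAS, fell by 0.33, NLRX1, a matrix protein of the NOD-like family, by 1.31, the choline dehydrogenase CHDH by 0.76 and VPS13D, a lipid transfer protein, by 0.36 on the log2 scale. NLRX1 and CHDH were low genes. NLRX1 averaged 0.241 RPKM with circAASS and 0.771 RPKM with empty vector, and CHDH 0.286 RPKM with circAASS and 0.586 RPKM with empty vector. GBAS was lost without circAASS library 3 or any empty-vector library (highest adjusted p = 0.0823), and VPS13D without circAASS library 2 or 3 or empty-vector library 1 or 2 (up to 0.0932). NBR1, a ubiquitin-binding adaptor too, stood at 8.56, 9.07 and 8.63 RPKM with circAASS, against 9.56, 9.83 and 10.3 RPKM with empty vector (log2 fold change -0.10, adjusted p = 0.197). With library size alone NBR1 was called lower (adjusted p = 0.0478). TOLLIP, another adaptor, stood at 1.19 ± 0.188 RPKM with circAASS and 1.32 ± 0.176 RPKM with empty vector (adjusted p = 0.745).

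Among 14 tested regulators of the receptors 7 rose, none fell and 7 did not pass (median 0.24), where 16.4% of all tested genes rose. With library size alone 3 rose, and without empty-vector library 2 the count was 4. TBK1, given above, is also on this list. PPTC7, a phosphatase that limits the amount of BNIP3 and BNIP3L protein, rose to 3.55 ± 0.194 RPKM with circAASS, against 2.66 ± 0.204 RPKM with empty vector (log2 fold change 0.48, limma adjusted p = 0.00541). CSNK2A1 (0.24) and CSNK2A2 (0.30), the catalytic subunits of the kinase CK2, which phosphorylates FUNDC1, rose as well. CSNK2A1 did not pass with library size alone (adjusted p = 0.0826). The ligase gene MARCH5 was not analysed because its name had been turned into a date.

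Of 5 tested genes of the ATG8 family, the proteins on the autophagosome that receptors and adaptors bind, 3 rose and 2 did not pass (median 0.22). MAP1LC3B rose to 7.41 ± 0.241 RPKM with circAASS, against 5.77 ± 0.179 RPKM with empty vector (log2 fold change 0.43, limma adjusted p = 0.00193). GABARAPL1 rose by 0.29 and GABARAPL2 by 0.22 on the log2 scale, the last lost without circAASS library 2 or 3 or any empty-vector library (highest adjusted p = 0.0714). GABARAP stood at 6.35 ± 0.911 RPKM with circAASS and 7.94 ± 0.822 RPKM with empty vector (log2 fold change -0.25, limma adjusted p = 0.129). It passed without circAASS library 2 (adjusted p = 0.0299), and other genes cover 55.7% of its exon bases.

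More transcription factors linked to mitophagy genes rose than fell. Of 15 tested 9 rose, 1 fell and 5 did not pass (median log2 fold change 0.26), and with library size alone 6 rose and 2 fell. Of all tested genes 16.4% rose and 16.0% fell. HIF1A, the oxygen-regulated subunit of HIF, rose to 111 ± 11.2 RPKM with circAASS, against 76.2 ± 4.28 RPKM with empty vector (log2 fold change 0.62, limma adjusted p = 0.00134). ATF4 of the integrated stress response (0.50), TFE3, a factor of lysosomal and autophagy genes (0.48), and E2F1 (0.53) rose too.

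HIF targets other than BNIP3 moved both ways. Of 29 tested 9 rose, 6 fell and 14 did not pass (median 0.10), and with library size alone 6 rose and 9 fell. VEGFA rose to 11.9 ± 0.296 RPKM with circAASS, against 7.41 ± 0.439 RPKM with empty vector (log2 fold change 0.76, limma adjusted p = 0.000346), with the collagen hydroxylase P4HA2 (0.46) and the secreted glycoprotein STC2 (0.75). The repressor BHLHE40 fell to 5.52 ± 0.175 RPKM with circAASS, against 11.5 ± 0.378 RPKM with empty vector (log2 fold change -0.97, adjusted p = 0.000109).

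Nuclear genes of abundant mitochondrial proteins were read beside the mitophagy genes, and their transcripts do not measure the amount of mitochondria. Of 18 tested 8 rose, none fell and 10 did not pass (median 0.15); with library size alone 4 rose, and 5 rose without circAASS library 2 or without any of the 3 empty-vector libraries. SDHB of complex II rose to 11.4 ± 0.388 RPKM with circAASS, against 8.86 ± 0.542 RPKM with empty vector (log2 fold change 0.44, limma adjusted p = 0.00156), with the chaperone HSPA9 (0.38), cytochrome c, CYCS (0.37), and UQCRC1 of complex III (0.31). Genes of the mitochondrial genome took 9.12% to 10.1% of the reads with circAASS and 8.88% to 9.06% with empty vector.

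**Figure D5:**
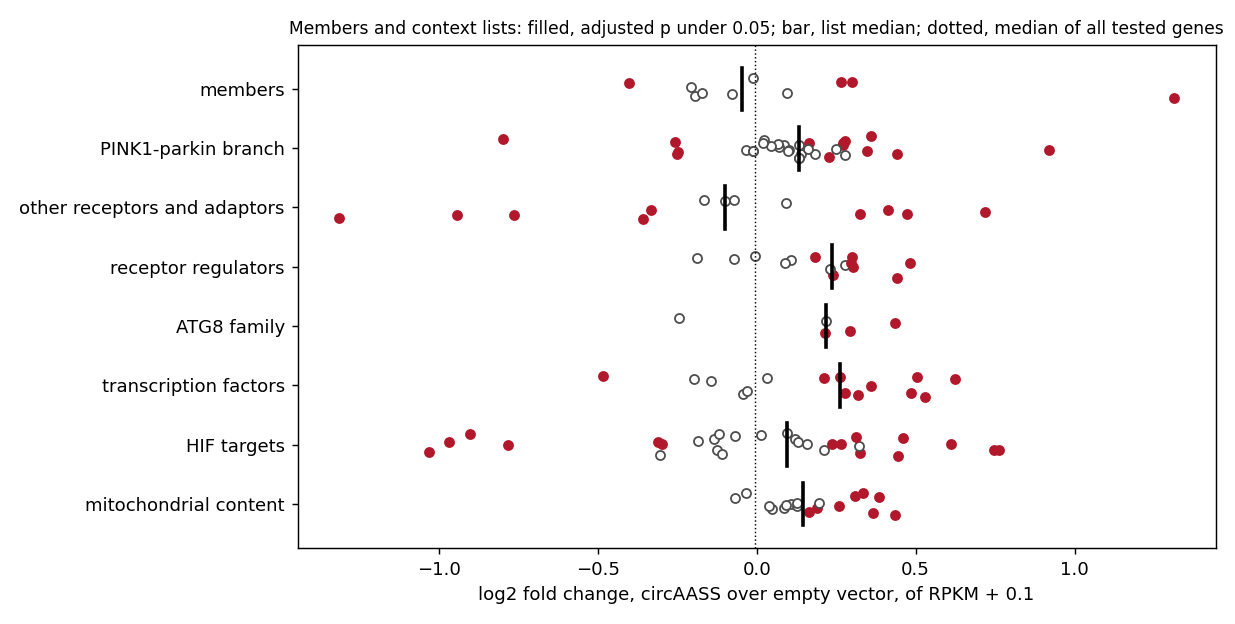
Log2 fold changes, circAASS over empty vector, of the tested genes of the set and of 7 lists around it, 1 point per gene; filled points passed, bars are list medians, and the dotted line is the median of all tested genes. PINK1 lies to the right of every other gene shown, and regulators, transcription factors and mitochondrial genes have medians of 0.24, 0.26 and 0.15.

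Library totals were 47384879 to 58179563 reads with circAASS and 45148425 to 52470055 with empty vector, and read numbers cover counting error only. Of 13 markers of the kidney tubule 8 were tested, while the markers of differentiated proximal tubule LRP2, CUBN, AQP1, SLC34A1 and ANPEP had means under 0.1 RPKM. Of the 8 tested, PAX8, KRT8 and KRT18 rose, and CDH6, GGT1 and EPCAM fell. CDH6, a cadherin of the tubule, fell to 4.89 ± 0.256 RPKM with circAASS, against 13.5 ± 0.269 RPKM with empty vector (log2 fold change -1.37, limma adjusted p = 5.22e-05). EPCAM passed in 1 of the 6 fits with a library left out (highest adjusted p = 0.115). The summed level of the list was 314 to 348 RPKM with circAASS and 276 to 291 RPKM with empty vector, most of it KRT8 and KRT18. Markers of endothelium summed to at most 0.0988 RPKM with circAASS and 0.107 RPKM with empty vector, and those of fibroblasts to 4.17 to 4.49 RPKM with circAASS and 3.69 to 4.46 RPKM with empty vector. The 6 leukocyte markers summed to 78.3 to 100 RPKM with circAASS and 102 to 106 RPKM with empty vector, nearly all of it CD68; the other 5, PTPRC among them, averaged under 0.1 RPKM over the 6 libraries and were not tested. Of 4 tested RNAs without a poly(A) tail 3 were higher with circAASS, among them RN7SK at 55.6, 135 and 190 RPKM with circAASS against 44.7, 34.1 and 37.0 RPKM with empty vector, and RPPH1 did not pass. RN7SK was lost without circAASS library 2 or empty-vector library 2 or 3 (highest adjusted p = 0.0586) and with limma-voom (adjusted p = 0.108). It passed under 9 of the 14 alternatives. The part of the RNAs without a poly(A) tail in the results was not tested. AASS, the host gene of the overexpressed RNA, stood at 0.880 ± 0.0842 RPKM with circAASS and 1.23 ± 0.141 RPKM with empty vector (limma adjusted p = 0.072), and these values do not measure circAASS itself.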

How the data were processed

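Total RNA of 6 samples of HK-2 cells was turned into strand-marked mRNA libraries, of which both ends were sequenced, per the labels' protocols. The values deposited by the authors are RPKM per gene, 1 column per library. The submitters' processing notes name Trimmomatic 0.36, featureCounts, Subread 1.5.1, edgeR 3.12.1 and GRCh38; which aligner, annotation and strand setting were used is not stated there. The series' design text places profiling at 24 h after hypoxia and reperfusion, the sample labels at 12 h of reoxygenation, which is used here.

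Reads were worked out from RPKM with exon lengths of GENCODE 29: for 22385 of 24697 uniquely named genes (90.6%) all 6 values were whole within 0.02 reads, and for 12621 other genes the smallest fitting length was used. Even numbers made up 78.6% of read numbers from 1 to 20, as mates were mostly counted separately. Repeats within each group were not duplicates of 1 library, as their reads differed beyond counting error (chi-square over degrees of freedom 5.81 to 22.05). The 28 names turned into dates were left out. Genes with 10 reads at the median library size in 3 libraries and 15 in all were tested, 19321 in number. RPKM were divided by trimmed-mean factors (0.954 to 0.996 with circAASS, 1.02 to 1.04 with empty vector). Then limma 3.58.1 (R 4.3.3, with trend and robust) tested log2(RPKM + 0.1) with group as the sole term. The test was checked on simulated reads with few changed genes, as many rises as falls, the same spread for every gene and no scaling factors. That check did not cover the scaling. Means ± SD are of deposited RPKM. Values were handled in Python 3.11 (numpy 2.4.6, pandas 2.3.3) and drawn with matplotlib 3.10.9.

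The 10 genes and the lists were chosen with earlier results of these data known. Named beside them are genes that overlap their exons (CCDC3, MIR6084, U47924.1 and AC005387.1, which were not tested, are given no values), up to 4 genes with the smallest p of each list and all of a count of 5 or fewer in a direction, the 5 genes nearest to PINK1, and AASS. A gene that this rule names is not reported here. Alternatives were library size alone, pseudocounts of 0.01 and 1, no filter, a mean of at least 1 RPKM, a plain prior, limma-voom, a replicate block and leaving out each library.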

Additional observations from a re-analysis of the deposited data

How the results depend on the processing

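PINK1 and OPTN kept direction and call under all 14 alternatives, and the 10 genes together kept theirs in 121 of 140 comparisons with an alternative. Of the 10 genes, 7 changed with library size alone and 7 with limma-voom, and 2 to 4 when a library was left out. Of all genes 4147 to 5665 changed when a library was left out, the fewest without empty-vector library 2. The PINK1-parkin branch had 7 changed genes with no filter and 7 to 11 with a library left out. The receptor regulators had 3 with library size alone, 4 with no filter and 4 to 7 with a library left out, and the mitochondrial genes had 4 with library size alone and 5 to 8 with a library left out. The log2 fold change of BCL2L13 ran from -0.038 to 0.028 with a library left out, turning positive without circAASS library 1 or empty-vector library 3, and that of RPPH1 turned to -0.006 with library size alone. The cause was not tested. Libraries with the same repeat number were no more alike than others (correlations of deviations -0.03 to 0.02, against -0.045 to 0.048 for other numbers). With 3 libraries per group, this cannot tell whether libraries of the same number were prepared together. With the number as a replicate block in limma 4 of the 10 genes changed, FKBP8 passing (adjusted p = 0.0351) and USP30 not (adjusted p = 0.0627). USP30 had the fewest reads of the set, 221 to 365 a library.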
